A study of Homo sapiens with 3 samples.

Results

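Interferon-stimulated genes (ISGs) and the factors that regulate them were followed in HaCaT cells, an immortalised line of human keratinocytes, after exposure to particles. The group was set by a list of 41 gene symbols and holds 41 of the 58735 Ensembl genes counted, each symbol matching 1 gene. RNA was sequenced from 3 cultures, 1 library each, all of genotype WT per the labels. One culture received the particulate sample S1650b at 50 µg/mL, one received carbon black (CB) at 25 µg/mL, and the control received no particles. Exposure lasted 24 h, and the labels describe particles given in medium without serum. The doses of the 2 particles differ, and no group has a replicate, so no difference below has a replicate check and no P value is given.

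ISGs are the effector arm of the antiviral response. Sensors of foreign or misplaced nucleic acid start the production of interferons, which bind receptors coupled to the kinases JAK1 and TYK2. These kinases phosphorylate STAT proteins, STAT2 among them, and a complex that includes STAT2 and IRF9 binds the interferon-stimulated response element (ISRE) at the promoters of ISGs. Keratinocytes keep a low tonic level of many ISGs and raise them during infection and in inflammatory skin disease.

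Of the 41 genes, 39 had 1 CPM or more in 1 library or more (CPM, counts scaled by the size of the library), and 38 of these had it in every library. ISG20 was the exception, at 0.627 CPM with S1650b. MX2 and XAF1 stayed under 1 CPM in every library. The libraries held 20417744 (S1650b), 20946139 (CB) and 20658247 (control) counts. Each fold is a ratio of CPM scaled by TMM (trimmed mean of M values), and the 95% interval in parentheses covers counting error only. Higher and lower are used of genes whose fold is 1.5 or more in that direction and whose interval does not reach 1. Keratinocyte markers were abundant, with 0 of 10 at a count of 0 in any library, and summed to 7169 CPM with S1650b, 14274 CPM with CB and 15644 CPM in the control. Among 12 leukocyte markers, 4 had a count of 0 with S1650b, 7 with CB and 6 in the control, and the pan-leukocyte marker PTPRC had 1, 0 and 0 counts. In the S1650b library, folds also ran with exon length and GC content. Ordered by length, the median log2 fold over the control was −0.29 in the shortest eighth of all genes and 0.48 in the longest. Ordered by GC content, it was 0.60 in the lowest eighth and −0.43 in the highest. For CB, these medians were −0.10 and 0.01 by length and 0.05 and −0.08 by GC.

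Exposure to CB set against no particles addresses the response of these transcripts to carbon black. With CB, 15 of the 39 measured genes were lower and 0 were higher, beside 10.7% lower and 4.70% higher among all 14709 measured genes. The fold was below 1 in 37 of 39, beside 7417 of 14709 among all measured genes, and the 2 others were EIF2AK2 and USP18. The median log2 fold was −0.49, against −0.01 over all measured genes. RSAD2, IFI44L, OASL, TRIM22 and SAMD9L were 2-fold lower or more. These 5 genes compare with 5.60% of all genes, and 0 genes were 2-fold higher, beside 1.69% of all. With the trends with length and GC content removed, 14 genes were lower and 0 higher, beside 10.0% and 5.12% of all genes. In bulk RNA, fewer cells of a kind and less RNA per cell cannot be told apart. The summed levels of markers of other cell types were lower as well. The 6 fibroblast markers, mostly DCN and COL3A1, summed to 30.3 CPM with CB, with 0 of 6 at a count of 0, and to 93.2 CPM in the control, with 2 of 6 at 0. The 12 leukocyte markers summed to 4.97 CPM with CB and 14.8 CPM in the control, with 7 and 6 of 12 at a count of 0. Most of the control sum was CD74, at 1.74 CPM with CB and 9.05 CPM in the control. The 6 endothelial markers summed to 28.2 CPM with CB, with 1 of 6 at 0, and to 54.8 CPM in the control, with 3 of 6 at 0. Most of that sum was CDH5, and CLDN5 and ERG went the other way, at 10 and 9 counts with CB and 0 in the control. The part of these markers in the result was not tested.

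Exposure to S1650b set against no particles addresses their response to the particulate sample. With S1650b the genes went both ways: 20 of 39 were lower and 5 were higher, beside 19.4% lower and 22.0% higher among all measured genes. The median log2 fold was −0.63, against −0.04 over all genes. Lower genes included all 4 oligoadenylate synthetases, all 3 IFITM genes, ISG15, USP18, CMPK2 and ISG20. PARP14, SAMD9, EIF2AK2, DTX3L and DDX58 were the 5 higher genes. With the trends with length and GC content removed, 18 genes were lower (15.9% of all genes) and 1, PARP14, was higher (16.1% of all genes). At a fold of 2, 15 genes were lower and 2 higher, beside 7.86% and 12.1% of all genes. Scaling by total counts gave 17 lower and 8 higher genes, beside 11.8% and 29.2% of all genes. Markers moved here too: keratinocyte markers were lower in 5 of 10 and higher in 1 of 10. Fibroblast markers summed to 12.9 CPM with S1650b, with 0 of 6 at a count of 0, and 93.2 CPM in the control. Leukocyte markers summed to 10.97 CPM with S1650b and 14.8 CPM in the control, but went both ways. Of the 3 measured, 2 were lower and 1 higher. CD74 had 1.66 CPM with S1650b and 9.05 CPM in the control, and IL3RA had 7.57 and 3.46 CPM. Their part in the result was not tested.

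Set against each other, the 2 particle libraries differed in both directions. With S1650b, 11 of the 39 genes were higher than with CB and 11 were lower, beside 26.3% and 20.6% of all measured genes. The median log2 fold was −0.05, against 0.03 over all genes. Scaling by total counts turned it to 0.13, against 0.21 over all genes. Total counts gave 13 higher and 9 lower genes, beside 33.2% and 14% of all genes. At a fold of 2, 5 genes were higher and 6 lower, beside 16.1% and 9.46% of all genes. With the trends removed, 8 were higher and 10 lower, beside 20.7% and 19.4%. All 4 RNA sensors and 4 of the 5 PARP and SAMD9 genes were higher with S1650b, and OAS2, OAS3, OASL, IFITM1, BST2, ISG15, USP18, CMPK2, ISG20, IFIT1 and IFI6 were lower. Removal of the trends left 2 of the 4 sensors higher, since DDX60 and EIF2AK2 no longer passed, and IFIT2 no longer passed as higher. IFI6 and BST2 no longer passed as lower, and IFI44L did. Because the particles were given at 50 and 25 µg/mL, these differences are not at matched doses. The comparisons with the control share 1 control library, so a low or high value there enters both.

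**Figure D1:**
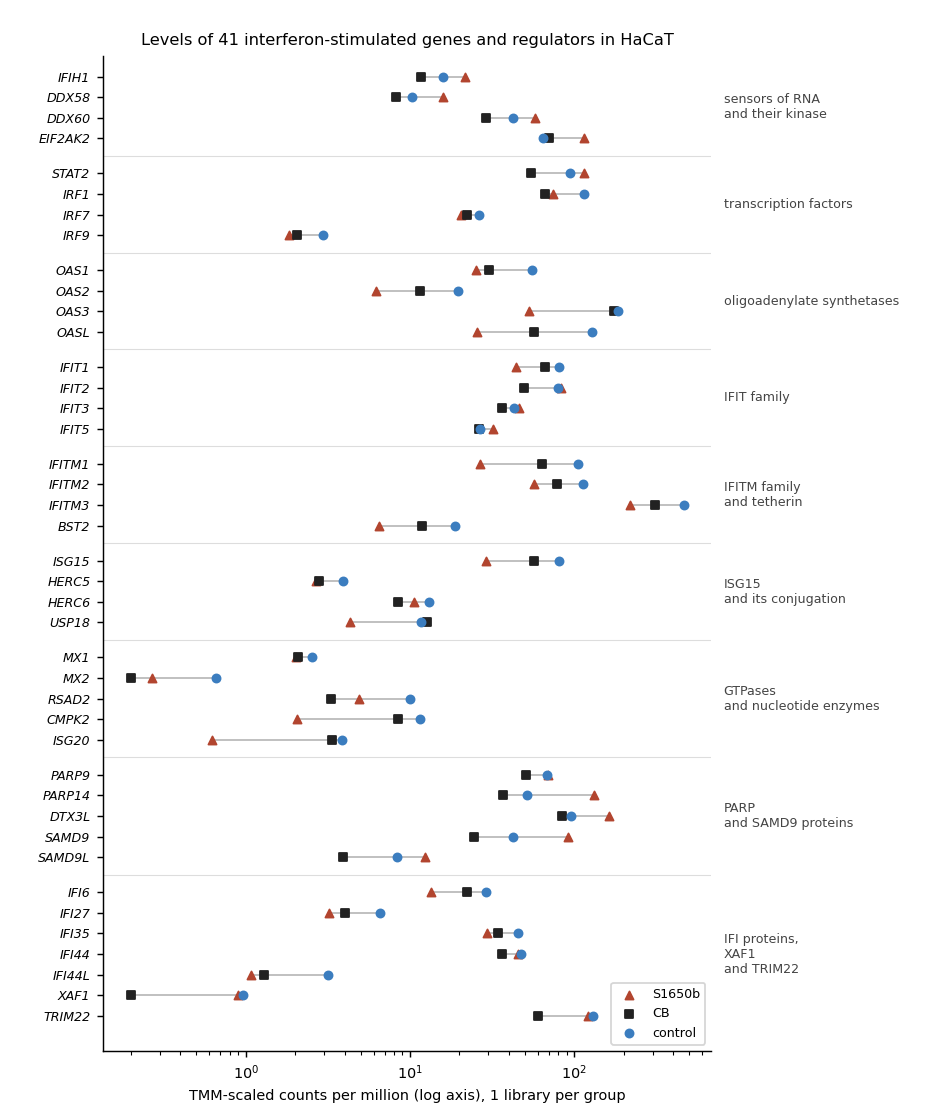
TMM-scaled CPM (log axis) of the 41 genes in each library, grouped by role: S1650b as triangles, CB as squares and control as circles, with a grey line over the range of the 3 values. The control is the highest of the 3 for all IFITM genes and all oligoadenylate synthetases, and S1650b is the highest for the RNA sensors and for PARP14, DTX3L, SAMD9 and SAMD9L.

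**Figure D2:**
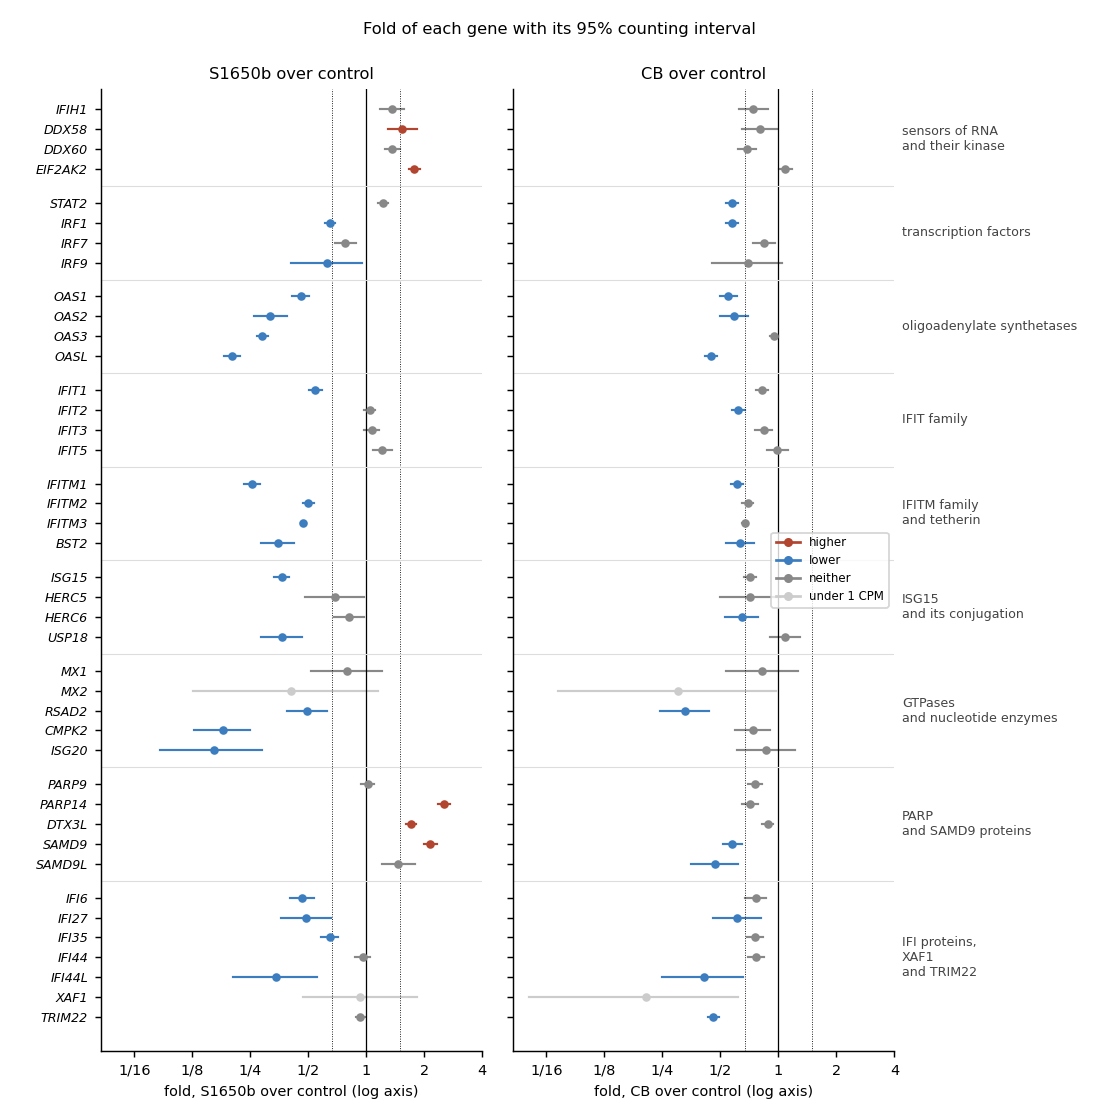
Fold of each gene over the control (log axis) with its 95% counting interval, for S1650b (left) and CB (right). Dotted lines mark a fold of 1.5 in either direction. With CB 15 genes are lower and 0 higher, and with S1650b 20 are lower and 5 higher.

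Promoter sequence is shown for genes that took different directions, because the ISRE is the element through which interferon acts on them. In the ISRE, GAAA repeats are set 1 or 2 bases apart, so GAAANNGAAA and GAAANGAAA were searched on both strands, and matches could overlap. RefSeq windows on GRCh38.p14, from 250 bases before to 50 bases after a start, were at hand for 33 of the 41 genes. At least 1 match was found for 28 of the 33 genes (84.8%), against 7.83% of all 27305 genes in the table. The genes were listed as interferon-stimulated, so this share describes the list and not the response to the particles. Among genes lower with S1650b, 14 of 16 had a match, and so had 5 of 5 that were higher and 8 of 11 that were neither. Among genes lower with CB, 7 of 11 had a match, against 20 of 21 that were neither higher nor lower. No window was at hand for OAS2, OASL, IFIT2 and TRIM22, lower with CB, or for OAS2, OASL, IFITM2 and USP18, lower with S1650b. STAT2, IRF1, IRF9, HERC6 and SAMD9L had no match in their windows. The windows below, 1 per gene with the most matches, run 5′ to 3′ on the strand of the gene, and capitals mark the matches. RSAD2 (chr2:6865635-6865934, plus strand) and OAS1 (chr12:112906712-112907011, plus) were lower with both particles. OAS3 (chr12:112938224-112938523, plus) and ISG15 (chr1:1013247-1013546, plus) were called lower with S1650b and not with CB. PARP14 (chr3:122680589-122680888, plus) was higher with S1650b, and SAMD9 (chr7:93117930-93118229, minus) was higher with S1650b and lower with CB.
RSAD2: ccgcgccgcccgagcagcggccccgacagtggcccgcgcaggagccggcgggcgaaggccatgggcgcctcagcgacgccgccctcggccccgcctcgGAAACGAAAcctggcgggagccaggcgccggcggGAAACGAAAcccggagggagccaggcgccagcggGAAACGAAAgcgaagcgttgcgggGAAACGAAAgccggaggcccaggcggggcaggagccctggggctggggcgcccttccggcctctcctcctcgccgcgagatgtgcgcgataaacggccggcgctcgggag
OAS1: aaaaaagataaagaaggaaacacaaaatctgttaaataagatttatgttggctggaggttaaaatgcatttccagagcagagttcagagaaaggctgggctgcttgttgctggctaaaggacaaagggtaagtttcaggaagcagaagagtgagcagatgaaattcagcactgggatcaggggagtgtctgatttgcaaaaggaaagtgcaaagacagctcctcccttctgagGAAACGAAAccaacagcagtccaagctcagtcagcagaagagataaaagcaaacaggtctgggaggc
OAS3: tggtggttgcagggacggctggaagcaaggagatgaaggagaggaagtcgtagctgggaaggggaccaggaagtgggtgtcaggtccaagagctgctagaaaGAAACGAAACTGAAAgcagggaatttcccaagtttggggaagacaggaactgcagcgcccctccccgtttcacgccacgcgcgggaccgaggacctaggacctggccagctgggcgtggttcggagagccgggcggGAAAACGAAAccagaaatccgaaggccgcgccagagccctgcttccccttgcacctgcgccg
ISG15: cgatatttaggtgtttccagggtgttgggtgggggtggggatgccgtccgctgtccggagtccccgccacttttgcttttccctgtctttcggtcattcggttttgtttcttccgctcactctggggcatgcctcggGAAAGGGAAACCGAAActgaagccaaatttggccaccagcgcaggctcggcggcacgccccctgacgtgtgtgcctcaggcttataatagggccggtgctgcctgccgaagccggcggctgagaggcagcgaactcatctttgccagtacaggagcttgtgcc
PARP14: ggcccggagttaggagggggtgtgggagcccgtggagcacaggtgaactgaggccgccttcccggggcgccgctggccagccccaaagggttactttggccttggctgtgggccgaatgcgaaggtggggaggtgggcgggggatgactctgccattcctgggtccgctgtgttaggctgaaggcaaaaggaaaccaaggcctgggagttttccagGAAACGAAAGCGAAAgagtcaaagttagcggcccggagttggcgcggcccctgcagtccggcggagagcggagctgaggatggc
SAMD9: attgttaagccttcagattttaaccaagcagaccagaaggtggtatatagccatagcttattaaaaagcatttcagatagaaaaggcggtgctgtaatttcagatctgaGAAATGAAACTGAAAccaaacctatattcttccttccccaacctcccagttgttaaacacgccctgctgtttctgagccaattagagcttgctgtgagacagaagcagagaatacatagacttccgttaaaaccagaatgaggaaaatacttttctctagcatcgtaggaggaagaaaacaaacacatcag
The printed RSAD2 window has 4 matches of the form with 1 base between the repeats. The other RSAD2 window, not printed, holds the form with 2 bases. The ISG15 window has 2 overlapping matches of the form with 2 bases. The windows of PARP14 and SAMD9 each hold 1 match of either form, overlapping. A match describes the letters and is not evidence of binding.

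Of the 4 sensors of foreign RNA, 2 were higher with S1650b against the control and 0 passed the rule with CB. Among all genes, 22.0% were higher with S1650b and 4.70% with CB. All 4 were higher with S1650b than with CB, beside 26.3% of all genes. DDX58 encodes RIG-I, the sensor of short RNA with phosphorylated ends, and stood at 15.8 CPM with S1650b, 8.21 CPM with CB and 10.3 CPM in the control. It was 1.54-fold higher (1.29 to 1.84) with S1650b, and its fold with CB was 0.799 (0.647 to 0.987). IFIH1 encodes MDA5, the sensor of long double-stranded RNA, and stood at 21.6 CPM with S1650b, 11.7 CPM with CB and 15.9 CPM in the control. Its folds of 1.36 (1.18 to 1.57) with S1650b and 0.740 (0.622 to 0.879) with CB lay on opposite sides of 1 without reaching the rule. DDX60, a helicase linked to RIG-I signalling, had 58.0 CPM with S1650b, 29.2 CPM with CB and 42.5 CPM in the control. Like IFIH1, it passed the rule against the control with neither particle. EIF2AK2 encodes PKR, the kinase that stops translation on sensing double-stranded RNA, and had 115 CPM with S1650b, 70.1 CPM with CB and 64.6 CPM in the control. It was 1.78-fold higher (1.66 to 1.90) with S1650b, while CB gave a fold of 1.09 (1.01 to 1.17). After removal of the trends, the log2 fold of EIF2AK2 with S1650b was 0.02, against 0.83 before, and that of DDX58 was 0.25, against 0.62. Against CB, the same step left DDX58 and IFIH1 higher, while DDX60 went to 0.44, against 0.99 before, and EIF2AK2 turned to −0.0855.

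Of the transcription factors, STAT2 and IRF1 were lower with CB, and IRF1 and IRF9 were lower with S1650b. STAT2, the subunit of the ISG activator that carries its transactivating domain, had 115 CPM with S1650b, 54.6 CPM with CB and 94.9 CPM in the control. It was 1.74-fold lower (1.61 to 1.88) with CB, and its fold with S1650b was 1.22 (1.14 to 1.29). IRF1, which interferon gamma induces, had 74.5 CPM with S1650b, 66.2 CPM with CB and 115 CPM in the control. Both particle libraries lay below the control, 1.74-fold lower (1.63 to 1.86) with CB and 1.54-fold lower (1.45 to 1.65) with S1650b. Exons of genes on the opposite strand overlap 22.0% of IRF1, and the sources used here do not say whether the counting used strand. IRF7, which drives production of interferon alpha, had 20.6 CPM with S1650b, 22.3 CPM with CB and 26.4 CPM in the control, with folds of 0.843 (0.741 to 0.959) for CB and 0.779 (0.686 to 0.885) for S1650b. These 3 values of IRF7 differed less than the rule asks. IRF9, the DNA-binding partner of STAT2, was at 1.84 CPM with S1650b, 2.04 CPM with CB and 2.95 CPM in the control, on 41, 41 and 58 counts. It was called lower with S1650b, 1.61-fold lower (1.06 to 2.46), but exons of AL136295.5 overlap 48.4% of it. With the counts of both genes summed, the fold of IRF9 was 0.769 (0.538 to 1.10) with S1650b and 0.772 (0.534 to 1.11) with CB, and neither passed the rule.

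Oligoadenylate synthetases make the messenger that activates RNase L, the nuclease that degrades viral and cellular RNA. All 4 were lower with S1650b, and 3 of 4 were lower with CB, beside 19.4% and 10.7% of all genes. OASL, a relative without synthetase activity that enhances RIG-I signalling, had 25.7 CPM with S1650b, 57.1 CPM with CB and 128 CPM in the control. It was 4.98-fold lower (4.55 to 5.46) with S1650b and 2.24-fold lower (2.09 to 2.41) with CB, and S1650b lay below CB as well. OAS1 had 25.2 CPM with S1650b, 30.3 CPM with CB and 55.3 CPM in the control, so both particle libraries lay near each other and below the control. It was 2.19-fold lower (1.98 to 2.43) with S1650b and 1.82-fold lower (1.65 to 2.02) with CB. OAS2 had 6.22 CPM with S1650b, 11.5 CPM with CB and 19.6 CPM in the control, and was 3.15-fold lower (2.58 to 3.85) with S1650b and 1.70-fold lower (1.44 to 2.01) with CB. OAS3, the family member most active on long double-stranded RNA, took another course, at 53.0 CPM with S1650b, 175 CPM with CB and 184 CPM in the control. With CB its fold was 0.949 (0.905 to 0.994), whereas with S1650b it was 3.47-fold lower (3.25 to 3.71). The log2 folds with S1650b ranged from −2.32 to −1.13 over the 4 genes, and removing the length and GC trends left their median at −1.75, against −1.72 before.

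The IFIT proteins bind viral RNA by its cap or its phosphorylated end, and in this family 1 of 4 genes was lower with each particle, beside 19.4% of all genes with S1650b and 10.7% with CB. IFIT1 had 44.0 CPM with S1650b, 66.4 CPM with CB and 80.9 CPM in the control. It was 1.84-fold lower (1.70 to 1.99) with S1650b and had a fold of 0.821 (0.762 to 0.883) with CB. IFIT2, a binding partner of IFIT1 and IFIT3, had 82.8 CPM with S1650b, 49.2 CPM with CB and 79.4 CPM in the control, so that CB alone lay apart. It was 1.61-fold lower (1.49 to 1.75) with CB, with a fold of 1.04 (0.975 to 1.12) for S1650b. IFIT3, which stabilises IFIT1, had 45.9 CPM with S1650b, 36.1 CPM with CB and 43.0 CPM in the control. IFIT5 had 32.2 CPM with S1650b, 26.2 CPM with CB and 26.5 CPM in the control. Neither IFIT3 nor IFIT5 passed the rule with either particle.

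Among membrane restriction factors, IFITM proteins block fusion of virus with the cell, and BST2, or tetherin, holds budding virions at the surface. Measured per length, IFITM3 was the most abundant of the 41 genes in every library, with 161 FPKM with S1650b, 239.9 FPKM with CB and 342 FPKM in the control. The next most abundant per length with S1650b was IFITM2, at 36.4 FPKM. On the CPM scale IFITM3 had 219 CPM with S1650b, 309.9 CPM with CB and 464 CPM in the control. It was 2.12-fold lower (2.05 to 2.19) with S1650b, and its fold with CB, 0.667 (0.646 to 0.689), lay at the limit of the rule without passing it. IFITM1 had 26.7 CPM with S1650b, 64.0 CPM with CB and 105 CPM in the control, in the same order of libraries. It was 3.92-fold lower (3.58 to 4.30) with S1650b and 1.64-fold lower (1.53 to 1.76) with CB. IFITM2 had 56.7 CPM with S1650b, 78.3 CPM with CB and 113 CPM in the control, and was 1.996-fold lower (1.86 to 2.14) with S1650b, with a fold of 0.692 (0.648 to 0.739) for CB. Exons of IFITM2 overlap 32.5% of IFITM1, and exons of IFITM1 overlap 22.7% of IFITM2. Exons of AC136475.5 overlap 21.3% of IFITM3. Of the stretches of 50 bases, 32.0% in IFITM1 transcripts, 34.1% in IFITM2 and 17.4% in IFITM3 also occur in transcripts of other genes. Overlapping genes were not set apart in these shares. Summed counts of IFITM1, IFITM2 and IFITM3 gave folds of 0.443 (0.431 to 0.457) with S1650b and 0.663 (0.645 to 0.681) with CB. BST2 had 6.49 CPM with S1650b, 11.8 CPM with CB and 18.7 CPM in the control. It was 2.88-fold lower (2.37 to 3.52) with S1650b and 1.58-fold lower (1.34 to 1.87) with CB, again with the control highest.

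ISG15, a ubiquitin-like protein that is attached to other proteins and also secreted, had 29.2 CPM with S1650b, 57.3 CPM with CB and 80.5 CPM in the control. It was 2.75-fold lower (2.51 to 3.02) with S1650b, and CB gave a fold of 0.712 (0.659 to 0.768), below 1 but short of the rule. USP18 removes ISG15 from its targets and blocks signalling at the interferon receptor. It had 4.30 CPM with S1650b, 12.7 CPM with CB and 11.7 CPM in the control, with S1650b alone apart from the others. It was 2.73-fold lower (2.14 to 3.50) with S1650b, and its fold with CB was 1.08 (0.901 to 1.30). USP18 shares 23.4% of its stretches of 50 bases with other genes, mainly USP41, which had 0 counts in every library. HERC5, the main ligase of ISG15 in human cells, was low at 2.69 CPM with S1650b, 2.79 CPM with CB and 3.91 CPM in the control and passed the rule with neither particle. HERC6, whose counterpart is the ISG15 ligase in mice, had 10.6 CPM with S1650b, 8.41 CPM with CB and 13.0 CPM in the control. It was 1.55-fold lower (1.27 to 1.89) with CB, with a fold of 0.815 (0.680 to 0.977) for S1650b.

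RSAD2 encodes viperin, which makes a nucleotide that ends viral RNA chains, and CMPK2 is a nucleotide kinase that can supply its substrate. They overlap at their 5′ ends on opposite strands of chromosome 2, and a CMPK2 window overlaps the RSAD2 window printed above. RSAD2 had 4.92 CPM with S1650b, 3.28 CPM with CB and 10.0 CPM in the control. It was 3.05-fold lower (2.30 to 4.09) with CB and 2.03-fold lower (1.60 to 2.59) with S1650b, so CB was the lowest library. CMPK2 had 2.06 CPM with S1650b, 8.41 CPM with CB and 11.4 CPM in the control, with S1650b the lowest. It was 5.55-fold lower (4.03 to 7.80) with S1650b and had a fold of 0.735 (0.599 to 0.901) with CB. ISG20, an exonuclease that degrades RNA, had 0.627 CPM with S1650b, 3.33 CPM with CB and 3.86 CPM in the control, on 14, 67 and 76 counts. It was 6.16-fold lower (3.46 to 11.8) with S1650b, and its fold of 0.863 (0.612 to 1.21) with CB did not exclude 1. MX1, a dynamin-like GTPase that traps viral nucleocapsids, was low at 2.01 CPM with S1650b, 2.09 CPM with CB and 2.54 CPM in the control. Its intervals included 1 with both particles, and at this depth no difference was detectable. Its relative MX2 had 6, 4 and 13 counts with S1650b, with CB and in the control.

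SAMD9, PARP14 and SAMD9L had the highest folds of S1650b over CB among the 39 genes. PARP14, an ADP-ribosyltransferase, had 132 CPM with S1650b, 37.1 CPM with CB and 51.9 CPM in the control. It was 2.54-fold higher (2.36 to 2.73) with S1650b, had a fold of 0.714 (0.649 to 0.786) with CB, and was 3.55-fold higher (3.27 to 3.85) with S1650b than with CB. SAMD9, which restricts poxviruses and curbs translation, had 91.5 CPM with S1650b, 24.5 CPM with CB and 42.5 CPM in the control. It was 2.15-fold higher (1.99 to 2.34) with S1650b and 1.74-fold lower (1.55 to 1.94) with CB, the only gene of the 39 that passed the rule in opposite directions. Its paralogue and neighbour SAMD9L had 12.3 CPM with S1650b, 3.93 CPM with CB and 8.39 CPM in the control. CB lay 2.13-fold lower (1.62 to 2.83), and the fold with S1650b was 1.47 (1.21 to 1.79). DTX3L, a ubiquitin ligase that works as a complex with PARP9, had 162 CPM with S1650b, 84.0 CPM with CB and 95.2 CPM in the control and was 1.70-fold higher (1.61 to 1.80) with S1650b. PARP9 had 69.1 CPM with S1650b, 51.2 CPM with CB and 68.1 CPM in the control and passed the rule against the control with neither particle. With the length and GC trends removed, log2 folds with S1650b over the control were 0.71 for PARP14, 0.52 for DTX3L and 0.52 for SAMD9, against 1.34, 0.77 and 1.11 before. Only PARP14 of these 3 was still at least 1.5-fold higher. The same correction left all 3 at least 1.5-fold higher with S1650b than with CB.

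Of the 6 remaining measured genes, 4 were lower with S1650b and 3 with CB, and 0 were higher. Among all genes, 19.4% were lower with S1650b and 10.7% with CB, while 22.0% and 4.70% were higher. With the length and GC trends removed, 3 of the 6 were lower with S1650b, beside 15.9% of all genes, and IFI35 no longer passed. IFI6, which protects cells from flaviviruses at the endoplasmic reticulum, had 13.5 CPM with S1650b, 22.2 CPM with CB and 29.1 CPM in the control and was 2.15-fold lower (1.87 to 2.49) with S1650b. IFI27 had 3.22 CPM with S1650b, 4.03 CPM with CB and 6.61 CPM in the control, and was 2.05-fold lower (1.53 to 2.77) with S1650b and 1.64-fold lower (1.23 to 2.19) with CB. IFI35 had 29.5 CPM with S1650b, 34.5 CPM with CB and 45.7 CPM in the control and was 1.55-fold lower (1.40 to 1.72) with S1650b. For all 3 the order of the libraries was the same, with S1650b lowest and the control highest. IFI44L had 1.07 CPM with S1650b, 1.29 CPM with CB and 3.15 CPM in the control, on 24, 26 and 62 counts, and was 2.93-fold lower (1.80 to 4.91) with S1650b and 2.44-fold lower (1.52 to 4.01) with CB. IFI44, beside it on chromosome 1, had 45.3 CPM with S1650b, 36.3 CPM with CB and 47.4 CPM in the control and passed the rule with neither particle. TRIM22, a ubiquitin ligase that restricts several viruses, had 122 CPM with S1650b, 60.04 CPM with CB and 131 CPM in the control. It was 2.18-fold lower (2.03 to 2.33) with CB and had a fold of 0.931 (0.882 to 0.983) with S1650b, so CB alone lay apart. XAF1, a partner of the apoptosis inhibitor XIAP, had 20, 4 and 19 counts with S1650b, with CB and in the control.

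Genes of a genomic cluster did not always share a call. In 9 places, genes of the list lie within 100000 bases of one another, 22 genes in all, on GRCh38. In the OAS cluster (chromosome 12, 112906777 to 113011723), OAS1, OAS3 and OAS2 were all lower with S1650b, whereas with CB OAS3 between its neighbours was not. In the IFIT cluster (chromosome 10, 89283694 to 89421001), CB gave a call at IFIT2 and S1650b at IFIT1. At SAMD9 and SAMD9L (chromosome 7, 93099513 to 93148369), both genes were lower with CB. PARP9 and DTX3L (chromosome 3, 122527924 to 122575203) overlap at their 5′ ends on opposite strands, and DTX3L alone was higher with S1650b.

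Length and base content of the genes went with the direction of the difference in the S1650b library. The 5 genes higher with S1650b had exon lengths of 4353 to 10753 bases and GC contents of 36.05 to 44.2%, and the 20 lower genes had 865 to 10240 bases and 37.8 to 63.4%. Across the 39 genes, Spearman's rho between log2 fold and GC content was −0.59 with S1650b and 0.12 with CB, beside −0.44 and −0.10 over 14703 genes. For exon length it was 0.35 with S1650b and −0.06 with CB, beside 0.30 and 0.04 over all 14709 genes. Genes of 1 library pair share depth and preparation, so these are descriptions. After removal of both trends, 30 of 39 genes had a log2 fold below 0 with S1650b, beside 7527 of 14703 among all genes. The median of the 39 was −0.48, against −0.02 over all genes. DDX58, EIF2AK2, SAMD9 and DTX3L no longer passed as higher, and IFI35, IFITM2 and IRF9 no longer passed as lower, while HERC5 now did. With CB, the same step left 14 of 15 lower genes, without BST2.

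**Figure D3:**
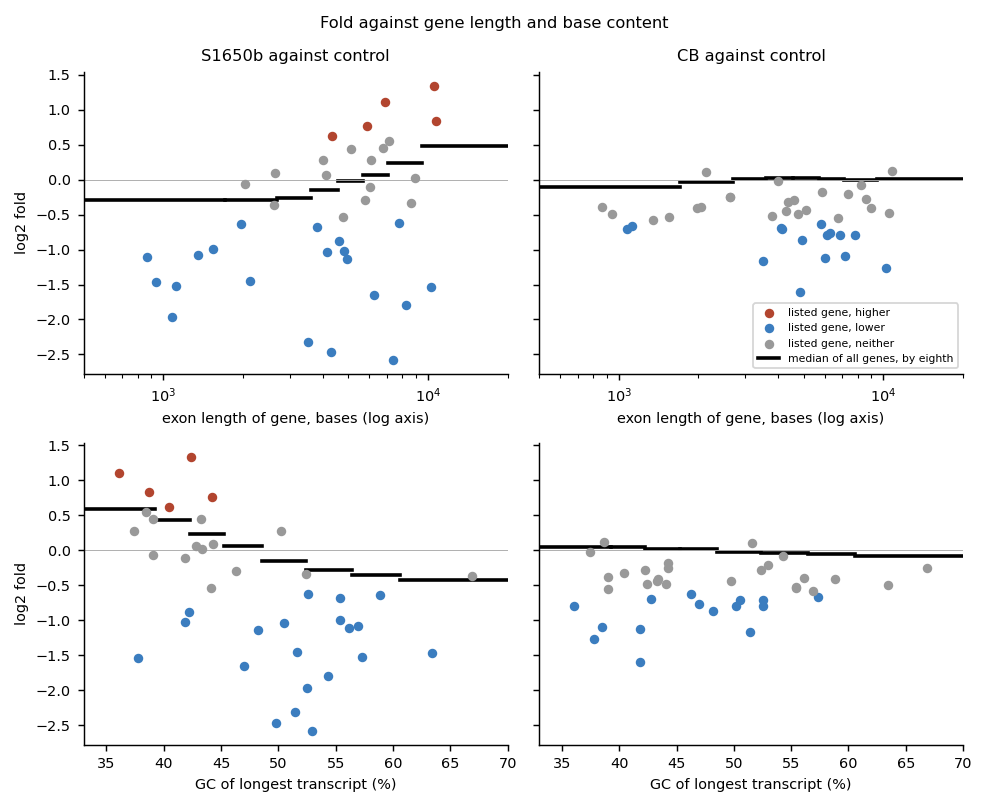
Log2 fold of the 39 measured genes against exon length (top, log axis) and GC content (bottom), for S1650b (left) and CB (right) over the control. Points are coloured by call, and black bars give the median of all measured genes in each eighth of length or GC, cut off at the edges of the plot. With S1650b the bars run from −0.29 to 0.48 with length and from 0.60 to −0.43 with GC, and most lower genes lie under them.

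Upstream of these genes, interferon transcripts were near the limit of detection. Of 20 interferon ligand genes, 15 had a count of 0 in every library, IFNB1 and IFNG among them, and none reached 1 CPM. A count of 0 allows up to 3 counts, which is 0.134 CPM with S1650b, 0.149 CPM with CB and 0.152 CPM in the control. IFNE, an interferon of epithelia, had 13 counts with S1650b, 10 with CB and 6 in the control. All 20 genes together had 17, 13 and 7 counts.

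Of 9 measured receptor and kinase genes, 3 were higher and 0 lower with S1650b, beside 22.0% and 19.4% of all genes. With CB 0 passed in either direction, beside 4.70% higher and 10.7% lower among all genes. JAK1, the kinase shared by all interferon receptors, had 136 CPM with S1650b, 50.8 CPM with CB and 63.6 CPM in the control and was 2.14-fold higher (2.01 to 2.29) with S1650b. JAK2, which serves the interferon gamma receptor, was 3.62-fold higher (2.501 to 5.37), and IFNAR1, a chain of the interferon alpha and beta receptor, was 1.53-fold higher (1.38 to 1.70). Removal of the trends put the log2 fold of JAK1 with S1650b at 0.94 and that of IFNAR1 at 0.25, against 1.10 and 0.61 before, so that IFNAR1 no longer passed.

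In the pathway that induces interferons, 2 of 15 genes were higher and 4 lower with S1650b (13.3% and 26.7%), beside 22.0% and 19.4% of all genes. With CB 1 was higher and 1 lower (6.67% each), beside 4.70% and 10.7%. These shares lay near those of all genes, and with the trends removed S1650b left 1 higher and 2 lower. TBK1, the kinase that activates IRF3, was 2.15-fold higher (1.85 to 2.49) with S1650b. TMEM173 encodes STING, the adaptor of cytosolic DNA sensing, and was 2.35-fold lower (2.10 to 2.64) with S1650b, while CGAS, the DNA sensor upstream of it, was 1.63-fold lower (1.36 to 1.96) with S1650b and 1.62-fold higher (1.40 to 1.88) with CB. TLR3, a sensor of double-stranded RNA in endosomes, was 1.58-fold higher (1.33 to 1.88) with S1650b and 2.47-fold lower (1.91 to 3.22) with CB. DHX58, a RIG-I relative, was 1.96-fold lower (1.67 to 2.30) and IKBKE 1.88-fold lower (1.70 to 2.08), both with S1650b. With the trends removed, the log2 folds with S1650b were 0.09 for TLR3, -0.54 for DHX58 and -0.47 for IKBKE, against 0.66, -0.97 and -0.91 before, and none of the 3 passed. Among 11 negative regulators, S1650b gave 1 higher and 0 lower, no more than the 22.0% and 19.4% of all genes, the single one being PIAS1, an inhibitor of STAT signalling, 1.60-fold higher (1.41 to 1.81). Its log2 fold of 0.67 turned to -0.0543 with the trends removed. CB gave 1 of each there: TNFAIP3, which encodes the ubiquitin-editing enzyme A20, was 1.93-fold higher (1.65 to 2.26) and PTPN6, a phosphatase, 1.53-fold lower (1.38 to 1.70), which no longer passed with the trends removed. With S1650b, the same step put 2 of the 11 at least 1.5-fold higher, beside 16.1% of all genes. These were TNFAIP3, at a log2 fold of 0.586 against 0.524 before, and SOCS1, at 0.887 against 0.418. SOCS1 had 29 counts with S1650b and 19 in the control.

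A list of other ISGs leaned the same way by count, less far from the share among all genes. Of 36 measured, 6 were lower and 1 higher with CB, which is 16.7% and 2.78%, beside 10.7% and 4.70% of all genes. With S1650b, 11 were lower and 6 higher, 30.6% and 16.7%, beside 19.4% and 22.0%. GBP2, a guanylate-binding GTPase, had 10.6 CPM with S1650b, 3.23 CPM with CB and 19.5 CPM in the control. It was 6.04-fold lower (4.63 to 7.98) with CB and 1.84-fold lower (1.56 to 2.17) with S1650b. TRAFD1, a feedback inhibitor, was lower with both particles as well, 1.70-fold lower (1.62 to 1.78) with S1650b and 1.67-fold lower (1.59 to 1.75) with CB. LY6E, a membrane protein, was 2.05-fold lower (2.002 to 2.11) with S1650b, and UBE2L6, the conjugating enzyme for ISG15, was 1.93-fold lower (1.83 to 2.02). SLFN5, a member of the Schlafen family, was 2.497-fold higher (2.38 to 2.62) with S1650b, and GBP3, a relative of GBP2, was 2.17-fold higher (1.90 to 2.48). With the trends removed, 1 gene of this list was higher and 7 were lower with S1650b, beside 16.1% and 15.9% of all genes. These 7 were not all among the 11. EPSTI1, GBP2 and RTP4 stayed lower, and the rest of the 11 no longer passed. APOL6, B2M, PLSCR1 and NT5C3A passed as lower only after the removal, at log2 folds of -0.95, -0.95, -0.95 and -0.70, against -0.22, -0.50, -0.55 and -0.36 before. GBP3 was the higher one, and SLFN5, LY6E, UBE2L6 and TRAFD1 no longer passed with S1650b, at log2 folds of 0.52, -0.51, -0.46 and -0.41. With CB, PNPT1, a mitochondrial exonuclease, was the single gene higher in this list, 1.64-fold higher (1.47 to 1.82).

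**Figure D4:**
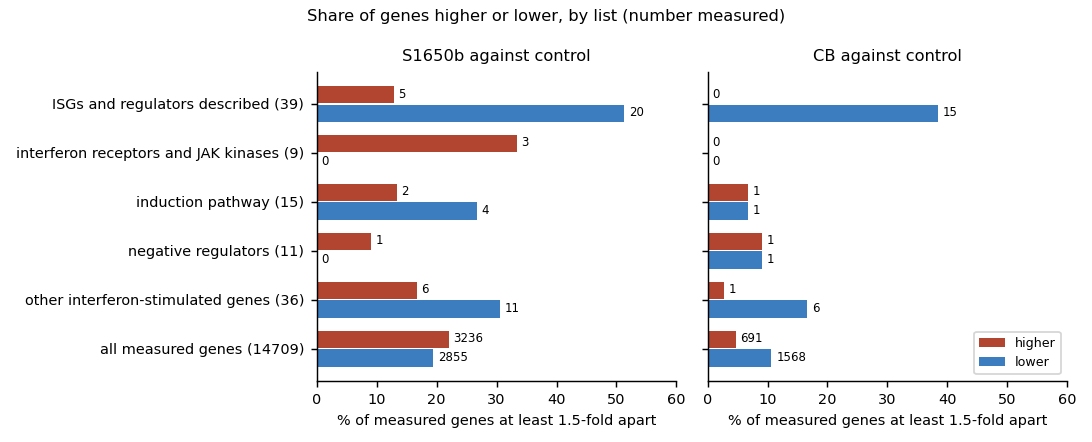
Share of measured genes called higher or lower than the control in each list, for S1650b (left) and CB (right), with the number measured in parentheses after the list name and the number called beside each bar. The 39 genes described here have 38.5% lower with CB and 51.3% lower with S1650b, beside 10.7% and 19.4% of all measured genes.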

How the data were processed

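RNA from 3 HaCaT cultures was extracted with Trizol and prepared with a NEBNext Ultra kit, per the labels. The deposited table holds whole-number counts per Ensembl gene, and a second deposited table holds FPKM computed by the authors. The ratio of count to FPKM gave 1 length per gene, apart from a library factor of 1.14 (S1650b) and 0.972 (CB) relative to the control. The submitters' processing notes name CASAVA 1.7 and mouse builds, which conflict with the human identifiers. For aligner, counter and genome build the sources used here give nothing. All 58735 identifiers occur in GENCODE 29, which gave positions, lengths and GC content. DDX58 and TMEM173 were matched by their GENCODE 29 names and the other listed genes by the gene name table.

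TMM factors came from edgeR 4.0.16 in R 4.3.3, over the 14709 genes that reached 1 CPM in any library, and were 1.09 (S1650b), 0.960 (CB) and 0.952 (control). Intervals are exact conditional binomial (Clopper-Pearson) at 95%, and 0.5 counts were added before log2. The labels name no molecular identifiers to mark PCR copies, so reads are not taken as independent molecules and intervals cover counting error only. Trends were removed by lowess with a span of 30% in statsmodels 0.14.6. The pipeline was tested on simulated data. Named genes were every gene of the list and, from 5 pathway lists, up to 4 called genes per comparison, with JAK1 in any case. Genes of the lists of other ISGs and negative regulators that passed with S1650b once the trends were removed are named as well. A further gene named by that rule is not reported here. The genes and lists were chosen with earlier results of these data known. Alternatives were other scalings (DESeq2 1.42.0 for median of ratios), FPKM with 0.1 added, other filters, 2-fold calls, 5 counts added and trend removal. Summing genes that share sequence was chosen after seeing the data. Python 3.11.15, numpy 2.4.6, pandas 2.3.3, scipy 1.17.1 and matplotlib 3.10.9 were used.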

Additional observations from a re-analysis of the deposited data

How the results depend on the processing

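Lower genes with CB numbered 13 (deposited FPKM) to 17 (no filter) and higher genes 0 under the scalings, filters and trend removals tried, against 15 and 0, and 5 were lower at a fold of 2. With S1650b against the control, higher genes were 8 with scaling by total counts, 1 with length and GC trends removed and 2 at a fold of 2, against 5. Scaling by total counts moved the median of all genes by 0.20 and the split from 5 higher and 20 lower to 8 and 17. Relative to that median the listed genes lay at −0.58 with total counts and −0.59 with TMM. For S1650b against CB, a fold of 2 gave 5 higher and 6 lower genes, against 11 of each. There the median log2 fold of −0.05 turned to 0.13 with scaling by total counts, 0.046 by upper quartile and 0.30 with a filter at 5 CPM, which kept 34 genes. Set against the median of all genes, it was −0.077 with TMM, −0.0785 with total counts and −0.078 by upper quartile. The log2 fold of EIF2AK2 for S1650b against CB turned to −0.0855 once both trends were removed. The cause was not tested. No paired analysis was possible because each group has 1 library, and no library could be left out. Depth limits MX1, MX2, HERC5, IRF9, IFI44L, ISG20 and XAF1 most, with 77 counts or fewer in any library.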
